A study of Mus musculus with 4 samples.

Results

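The transforming growth factor beta (TGF-beta) pathway was followed in the chromatin accessibility of mouse bone mesenchymal stem cells (MSCs) through 9 genes, the ligands Tgfb1, Tgfb2 and Tgfb3, the receptors Tgfbr1 and Tgfbr2, the signal transducer Smad3, the inhibitors Smad7 and Skil, and the secreted matrix protein Tgfbi. The data on them are the ATAC-seq peaks that overlapped each gene or the 10 kb on either side of it (GENCODE M21 gene models, mouse build mm10). This gave 98 of the 128055 peaks in the table, with at least 4 peaks for each of the 9 genes. Of the 98, 11 were promoter peaks (no further than 1 kb from an annotated start of a protein-coding transcript), 64 were gene-body peaks and 23 were flanking peaks. At the level of whole genes, the 9 belonged to 18096 protein-coding genes with at least 1 peak in the same span.

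TGF-beta ligands are secreted in a latent form, stored in the extracellular matrix, and released locally. The active ligand brings the type II receptor (Tgfbr2) and the type I receptor (Tgfbr1) together, and the type I receptor phosphorylates Smad2 and Smad3, which enter the nucleus with Smad4 and bind target genes. Smad7 blocks the receptor and Skil (SnoN) represses the Smad complex in the nucleus, and both are known feedback regulators of the pathway. In bone, a major store of latent TGF-beta, the pathway is known to act on the recruitment and the lineage choice of mesenchymal progenitors.

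The study asked how long exposure to normoxia alters chromatin in bone MSCs. The assay was ATAC-seq, where Tn5 transposase cuts and tags open DNA. There were 2 libraries from cells cultured in hypoxia (2% O2, 5% CO2) and 2 from cells cultured in normoxia (21% O2, 5% CO2), each from 50K cells. All cells came from C57BL/6N mice of 3-5 months, and no introduced allele or drug is named for any group. The labels call them bone-marrow MSCs, while the study's methods describe cells from collagenase-treated bone fragments, sorted as CD45-/Ter-119-/Sca-1+/CD140a+, so these are cultured cells and not the niche itself. The study counts its ATAC-seq as 2 biologically independent experiments, while the labels give no animal for a library. The p-values below measure the spread between these libraries, which may be partly technical.

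Library totals, recovered from the values, ran from 26680936 to 29965523 reads, and the median peak held 33 to 48 reads. The share of reads in peaks was 57.0% and 62.3% in hypoxia against 32.5% and 37.6% in normoxia, and this difference in library quality or in genome-wide accessibility cannot be told apart from the oxygen level. The deposited value of a peak is its signal, the reads in the peak scaled to the library total but not to peak width. In the table as a whole, 59.5% of peaks had both normoxia values under both hypoxia values. The tests therefore used values divided by relative log expression (RLE) size factors, which set the median change over all peaks close to 0 (−0.44 on the log2 scale before scaling), and each log2 fold change below is normoxia over hypoxia on log2(scaled value + 1) relative to that shift. Peaks were called at a false discovery rate (FDR) under 0.01 by limma, adjusted over the whole table. By this rule, 4.57% of all peaks were lower in normoxia and 1.77% were higher.

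The identity of the cells was checked on marker promoters. All 8 MSC markers had a promoter peak, with a mean signal between 59.9 (Ly6a, which encodes Sca-1) and 649 (Col1a1). Of 6 blood markers 3 had none, among them Ptprc (CD45) and Cd3e, and the other 3 lay between 11.5 and 42.9. Of 3 endothelial markers only Pecam1 had a promoter peak, at 9.61. The summed promoter signal of the blood markers was 98.9 to 119.3 in hypoxia and 68.2 to 88.1 in normoxia, and their part in the results was not tested. In a bulk library, fewer cells with an open site and less opening per cell cannot be told apart.

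Some of the DNA behind the results is shown first. RefSeq promoter windows (build GRCm38.p6) matched 6 of the 9 genes, with no entry for Tgfb3, Smad7 and Skil. The 250 bases before the start are given for 3 genes, Tgfb1 (promoter peak called lower in normoxia), Tgfbr2 (short of the threshold) and Smad3 (close to no change). Whether these promoter peaks differ in their change was not tested. Capitals mark matches, on either strand, to the SMAD half-site CAGAC, the GC box GGGCGG, the AP-1 motif TGANTCA or the hypoxia response core ACGTG.
Tgfb1, chr7:25686752-25687001, plus strand: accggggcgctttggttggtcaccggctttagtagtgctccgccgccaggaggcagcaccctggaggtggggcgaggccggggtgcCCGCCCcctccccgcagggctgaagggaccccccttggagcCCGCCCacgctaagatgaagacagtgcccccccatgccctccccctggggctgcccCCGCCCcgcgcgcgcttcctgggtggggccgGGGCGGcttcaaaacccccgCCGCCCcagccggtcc
Tgfbr2, chr9:116175364-116175613, minus strand: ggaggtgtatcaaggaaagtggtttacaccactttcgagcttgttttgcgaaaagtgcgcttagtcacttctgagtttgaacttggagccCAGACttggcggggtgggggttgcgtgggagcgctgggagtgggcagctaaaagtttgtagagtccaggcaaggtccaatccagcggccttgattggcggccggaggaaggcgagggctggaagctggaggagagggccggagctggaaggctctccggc
Smad3, chr9:63757995-63758244, minus strand: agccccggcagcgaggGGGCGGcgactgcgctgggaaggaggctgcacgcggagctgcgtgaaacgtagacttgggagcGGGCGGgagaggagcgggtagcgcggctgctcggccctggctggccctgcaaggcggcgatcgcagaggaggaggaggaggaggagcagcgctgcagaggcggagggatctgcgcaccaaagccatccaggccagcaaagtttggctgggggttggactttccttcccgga

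The Tgfb1 window was 75.2% G or C and held 5 GC boxes, the Smad3 window was 69.2% and held 2, and the Tgfbr2 window was 58.4% and held 1 SMAD half-site and no GC box. Over all 32851 RefSeq windows of this length, 32.7% held a GC box, 42.2% a SMAD half-site, 16.6% a hypoxia response core and 6.75% an AP-1 motif. A match is a string of letters and not a shown binding site.

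The centres of the only 2 peaks that were called higher in normoxia are shown for contrast, 300 bases each on the plus strand, the first inside Smad3 and the second past the end of Tgfb2.
Smad3 gene-body peak, chr9:63658151-63658450: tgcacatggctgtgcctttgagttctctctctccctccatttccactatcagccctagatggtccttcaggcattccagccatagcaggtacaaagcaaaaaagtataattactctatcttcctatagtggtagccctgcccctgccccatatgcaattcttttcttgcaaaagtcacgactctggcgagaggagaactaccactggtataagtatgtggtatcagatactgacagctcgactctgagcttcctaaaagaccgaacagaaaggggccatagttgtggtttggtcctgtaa
Tgfb2 flanking peak, chr1:186613751-186614050: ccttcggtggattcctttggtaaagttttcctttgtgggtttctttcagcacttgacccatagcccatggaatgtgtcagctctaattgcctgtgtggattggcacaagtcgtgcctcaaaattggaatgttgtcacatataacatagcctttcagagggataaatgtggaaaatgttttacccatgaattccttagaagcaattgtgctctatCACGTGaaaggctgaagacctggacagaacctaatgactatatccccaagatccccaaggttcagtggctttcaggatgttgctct

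The Smad3 stretch held none of the 4 motifs. The Tgfb2 stretch held the palindrome CACGTG, in which the hypoxia response core is read once on each strand with overlapping letters, and no other motif. Over 300 bases at the centre of the table's peaks (128048 lay within the reference chromosomes), 14.9% held the core, 53.0% a SMAD half-site, 20.6% an AP-1 motif and 9.67% a GC box. Across whole peaks, SMAD half-sites averaged 2.78 per kb in the 98 member peaks and 2.65 per kb in all peaks. The whole Smad3 and Tgfb2 peaks held 2.05 and 5.71 per kb, so the printed centres do not stand for the whole peaks.

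Among the 98 peaks, 9 were called lower in normoxia and 2 higher. The lower peaks lay at 4 genes only, with 3 at Skil and 2 each at Tgfb1, Smad7 and Tgfbi, so none of the receptors and, among the ligands, neither Tgfb2 nor Tgfb3 had a peak called lower. Of the 11 promoter peaks, 2 were called lower (18.2%) and 0 higher, where 16.7% of all promoter peaks were called lower and 0.442% higher. The median log2 fold change of the 11 was −0.26, beside −0.27 for all 17661 promoter peaks, and it turned to 0.027 with an equal total over all peaks and to 0.038 with cyclic loess. Gene-body peaks had 5 lower (7.81%) and 1 higher (1.56%) of 64, where 2.32% of the gene-body peaks of all protein-coding genes were lower and 1.86% higher. The gene-body median was −0.10, beside 0.05. The 5 include 2 weak Skil peaks that the authors' peak caller assigned to hypoxia alone, a state set from these same libraries. Such peaks made up 17.2% of the 64, against 7.55% of the gene-body peaks of all protein-coding genes, so the shares are not like for like. Flanking peaks had 2 lower (8.70%) and 1 higher (4.35%) of 23, where 3.29% and 1.34% of all flanking peaks were, and a median of −0.10, beside 0.02. Member peaks were wider (median 1450 bp against 1000 bp) and stronger (median signal 20.1 against 14.3) than the table as a whole, which bears on how often a peak can be called, and no test of the list was made.

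**Figure D1:**
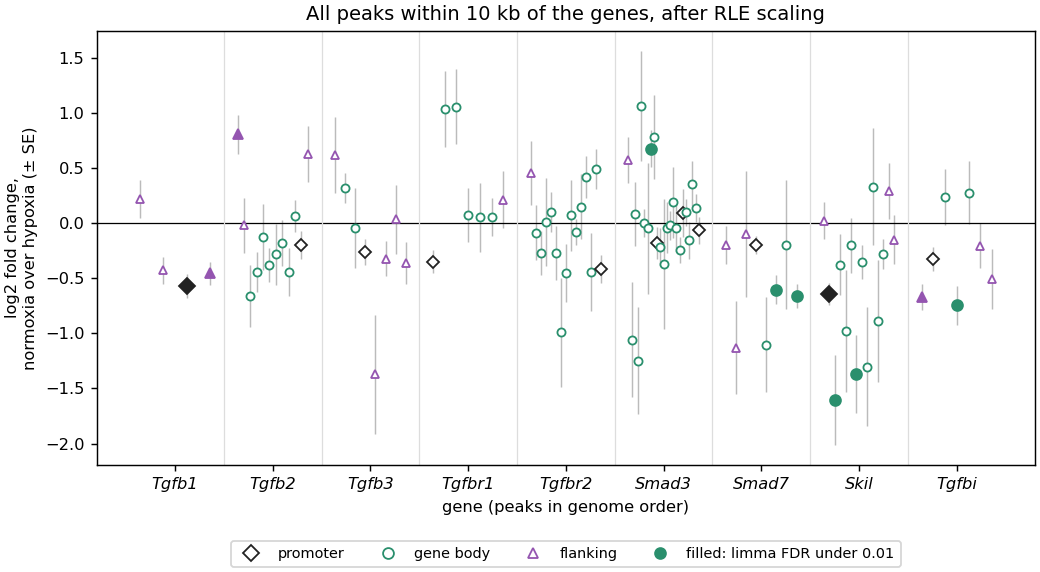
Log2 fold change, normoxia over hypoxia after RLE scaling, with its standard error for each of the 98 peaks, ordered along the genome within each gene. Diamonds are promoter, circles gene-body and triangles flanking peaks, and the 11 filled symbols (9 below 0, 2 above 0) passed FDR under 0.01 in limma.

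Before scaling, 70 of the 98 peaks (71.4%) had both normoxia values below both hypoxia values, 5 had both above, and the rest overlapped. In the whole table, 59.5% of peaks lay below and 8890 of 128055 lay above. The 11 promoter peaks were all among the 70, as were 86.1% of promoter peaks in general. After scaling, 41 peaks lay below and 17 above, where 29.6% of all peaks lay below and 27.4% above. A test of the deposited values without scaling called 35 of the 98 lower, where it called 24% of all peaks lower.

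**Figure D2:**
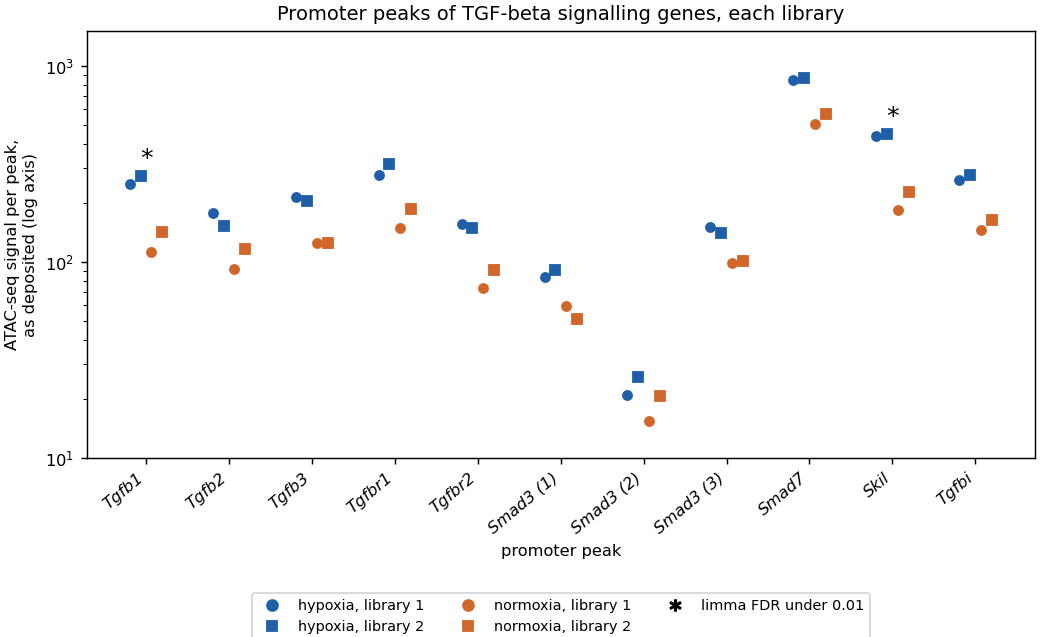
Deposited signal of the 11 promoter peaks in each library on a log axis, with hypoxia in blue and normoxia in orange. Both normoxia libraries sit below both hypoxia libraries at every one of the 11, as they do at 86.1% of all promoter peaks. Stars mark Tgfb1 and Skil, the 2 that passed FDR under 0.01 after scaling.

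The ligand Tgfb1, the main form of TGF-beta stored in bone matrix, had a promoter peak at chr7:25684701-25691200 that fell. Its signal was 249 and 275 in hypoxia against 113 and 141 in normoxia. The groups did not overlap before or after scaling, and the log2 fold change was −0.57 ± 0.11 (SE; limma, FDR 0.00083). A broad peak that began 324 bp past the end of the gene (chr7:25705401-25714100, no annotated exon of the gene in it) measured 345 and 356 in hypoxia against 163 and 206 in normoxia. Its log2 fold change was −0.46 (limma, FDR 0.0031), but it shrank to −0.17 (FDR 0.18) with an equal total over all peaks and to −0.05 (FDR 0.79) with cyclic loess. The promoter peak also lost its call with these scalings (−0.28 and −0.21, limma FDR 0.044 and 0.18). The remaining pair of Tgfb1 peaks lay upstream at the promoters of neighbouring genes, Tmem91 (0.22, limma FDR 0.42) and B9d2 (−0.43, limma FDR 0.016), and neither passed.

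Tgfb2, a ligand best known from development, showed another pattern. Its promoter peak (chr1:186700601-186707300) measured 178 and 153 in hypoxia against 91.8 and 116 in normoxia, a log2 fold change of −0.20 ± 0.13 that did not pass (limma, FDR 0.32). In the 83198 bp gene, 8 gene-body peaks were found and none passed, the strongest (chr1:186693701-186696500) with 67.9 and 70.7 in hypoxia against 52.8 and 51.4 in normoxia. By contrast, the peak 8192 bp past the gene end (chr1:186613201-186614600) measured 27.6 and 34.0 in hypoxia against 37.9 and 40.4 in normoxia. Both normoxia libraries were above both hypoxia libraries even before scaling, and after it the log2 fold change was 0.81 ± 0.18 (limma, FDR 0.0024). Without scaling the change was 0.34 and did not pass.

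Tgfb3, the third ligand, had no peak that passed after RLE scaling. The promoter peak (chr12:86075301-86082000) also covers the promoter of the divergent gene Ift43, so its signal cannot be given to Tgfb3 alone. It measured 213 and 204 in hypoxia against 124 and 125 in normoxia, with a log2 fold change of −0.26 ± 0.12 (limma, FDR 0.12). A peak of 8500 bp across the 3' end (chr12:86050701-86059200), with 2456 bp of it inside the gene, held 81.4 and 92.5 in hypoxia against 76.5 and 79.4 in normoxia. Its scaled change was 0.32 (limma, FDR 0.10). With an equal total over all peaks and with cyclic loess this peak was called higher (0.61 and 0.54, limma FDR 0.0019 and 0.0071).

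For the receptors, the promoter peaks were lower in normoxia before scaling and came short of the threshold after it. Tgfbr1, the type I receptor kinase, had a promoter peak (chr4:47349701-47354700) with 276 and 314 in hypoxia against 148 and 186 in normoxia (log2 fold change −0.35 ± 0.11, limma FDR 0.025). Tgfbr2, the ligand-binding type II receptor, had one (chr9:116173001-116176200) with 155 and 148 in hypoxia against 73.1 and 90.8 in normoxia (−0.41 ± 0.13, limma FDR 0.025). At both receptors the groups did not overlap, and both promoters pass a threshold of 0.05 but not the 0.01 used here.

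Within the bodies of the receptor genes no peak passed. The strongest at Tgfbr2, centred 23014 bp into the gene (chr9:116150401-116154100), measured 162 and 193 in hypoxia against 113 and 127 in normoxia, and its scaled change of −0.08 (limma, FDR 0.70) was small beside that of the promoter. At Tgfbr1 the strongest (chr4:47406801-47408000) measured 41.0 and 55.4 in hypoxia against 32.6 and 39.0 in normoxia (scaled change 0.06, limma FDR 0.86). With an equal total over all peaks, weaker gene-body peaks were called higher at Tgfbr1 (1.29 and 1.31, limma FDR 0.0098 and 0.0091) and Tgfbr2 (0.77, FDR 0.0044). None of these was called with cyclic loess. Whether promoter and gene-body peaks of a receptor differ in their change was not tested.

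Smad3, the transducer that carries the signal to DNA, had the most peaks of the 9 genes, with 23 over a gene of 111228 bp, and a summed signal that changed least after scaling. Its 3 promoter peaks belong to different annotated starts. At the first start along the gene the peak (chr9:63754201-63759300) measured 151 and 140 in hypoxia against 98.2 and 101 in normoxia, a log2 fold change of −0.06 ± 0.12 (limma, FDR 0.77). At the last start the peak at chr9:63664901-63669300 (83.5 and 91.1 against 59.6 and 51.1) had a change of −0.18. At a middle start the weaker peak at chr9:63711201-63713200 (20.9 and 25.8 against 15.4 and 20.7) had a change of 0.09. None of the 3 passed.

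One Smad3 peak was called higher. It lies in an intron (chr9:63656101-63660500, no annotated exon in it), with its centre 8246 bp past the nearest start. The signal was 55.2 and 42.2 in hypoxia against 52.9 and 59.1 in normoxia, so the groups overlapped before scaling, where the change was 0.21 and not called. After scaling they were apart, with a log2 fold change of 0.68 ± 0.16 (limma, FDR 0.0054). This peak thus held its signal before scaling. In 15 of the 23 Smad3 peaks both normoxia values lay below both hypoxia values, as they did in 59.5% of all peaks. The strongest gene-body peak (chr9:63700901-63708100) was among the 15, with 184 and 189 in hypoxia against 112 and 114 in normoxia (scaled change −0.24, limma FDR 0.16).

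**Figure D3:**
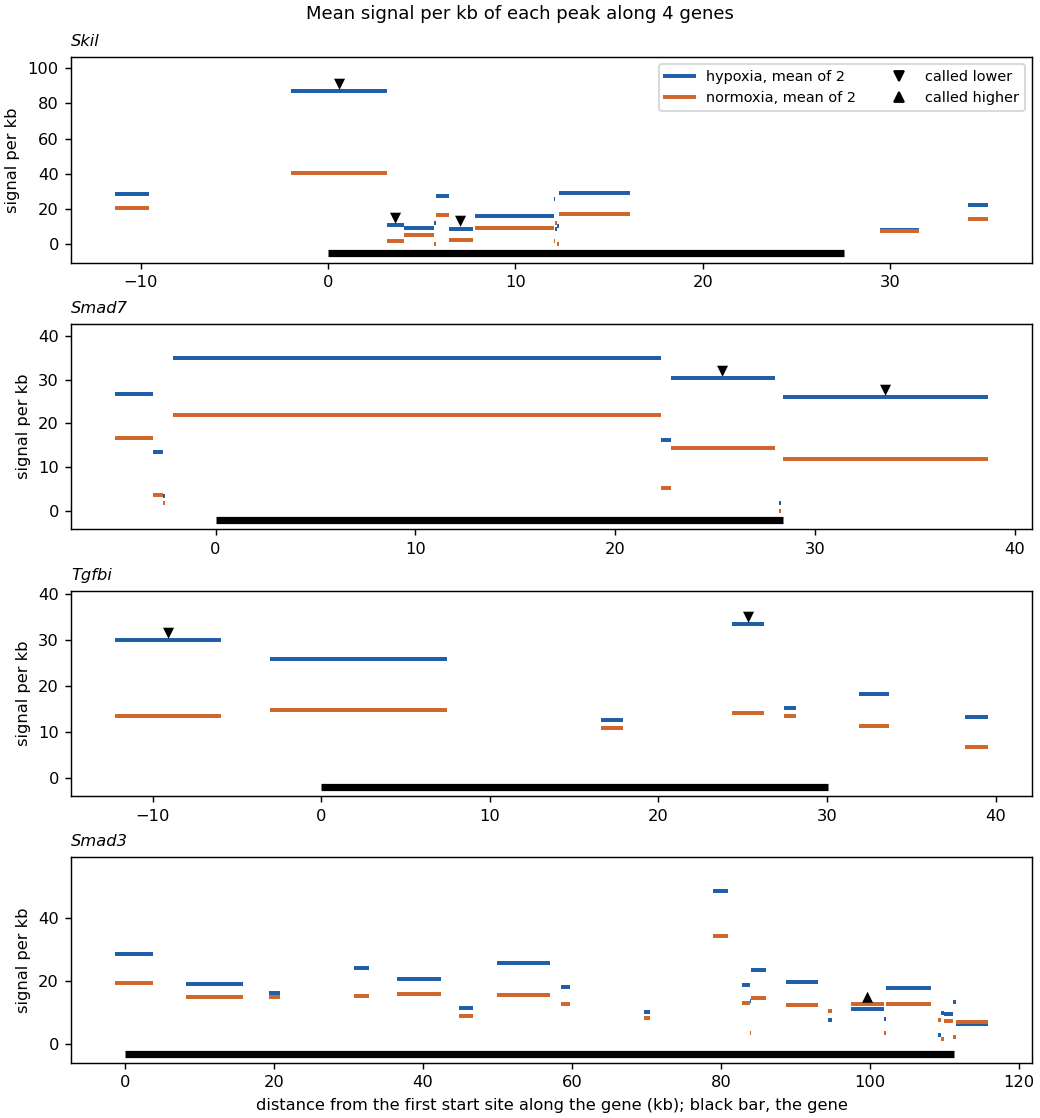
Mean deposited signal per kb of each peak (horizontal bars, mean of 2 libraries, hypoxia blue, normoxia orange) against distance in kb from the first start site, with the gene as a black bar. Called peaks carry a triangle. At Skil those called lower are the promoter peak (87.1 per kb in hypoxia) and weak gene-body peaks. At Smad7 they lie at the 3' end, although the deposited signal of the uncalled promoter peak was also lower in normoxia (21.9 against 35.0 per kb). The Smad3 intron peak called higher lies near the far end of the gene.

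Of the inhibitors, Skil had 3 of its 14 peaks called lower and Smad7 had 2 of 8, where 4.57% of all peaks were. Among those of Skil, 2 were weak peaks assigned to hypoxia alone by the peak caller. Whether inhibitors differ from the other members was not tested. Skil, the nuclear corepressor, had the lowest FDR of the 98 peaks at its promoter (chr3:31093101-31098200). That peak measured 439 and 449 in hypoxia against 184 and 226 in normoxia, with no overlap, and a log2 fold change of −0.64 ± 0.099 (limma, FDR 6.5e-05). It still passed with an equal total (−0.35, FDR 0.0047) and not with cyclic loess (−0.21, FDR 0.11). In signal per kb it stood above 93.6% of all promoter peaks. Its change was lower than that of all but 10.1% of them.

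Skil also had 2 weak peaks in the gene body that passed, both assigned to hypoxia alone by the authors' peak caller. The first (chr3:31098201-31099100) directly borders the promoter peak and measured 6.37 and 12.9 in hypoxia against 1.50 and 1.67 in normoxia (log2 fold change −1.61, limma FDR 0.0073), which rests on 4 and 5 reads in the normoxia libraries. The second (chr3:31101501-31102800) measured 11.0 and 11.9 in hypoxia against 1.87 and 3.67 in normoxia (−1.37, limma FDR 0.0087). Stronger gene-body peaks fell less in the fit and did not pass, such as chr3:31107401-31111200 with 99.4 and 122 in hypoxia against 61.1 and 69.1 in normoxia (−0.28, limma FDR 0.16).

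Such hypoxia-only peaks were found at other members too, 13 of the 98 (13.3%) where the whole table had 6.84%. Of these 13, 5 were at Skil, 4 at Smad3, 2 at Smad7 and 1 each at Tgfb3 and Tgfbr2. They were 100 to 1300 bp wide, and all 13 directly adjoined a peak assigned to both conditions. Their state was set from these same libraries, and the negative fold change of all 13 is therefore no independent result.

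Smad7, the inhibitor that is switched on by the pathway itself, was covered by one very wide promoter peak (chr18:75365401-75389800, 24400 bp) that takes in most of the gene. It measured 843 and 866 in hypoxia against 505 and 564 in normoxia, the highest summed signal among the 11 promoter peaks, which its width contributes to. The scaled change was −0.20 ± 0.080 (limma, FDR 0.088), and it turned to 0.35 and passed (limma, FDR 0.00069) when cyclic loess was used for scaling, so no direction is given for it.

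The 3' part of Smad7 did fall. The peak at chr18:75390301-75395500, which overlaps annotated exon sequence, measured 157 and 158 in hypoxia against 76.1 and 72.4 in normoxia (log2 fold change −0.60 ± 0.13, limma FDR 0.0016). The next one (chr18:75395901-75406200), counted in the gene body for an overlap of only 35 bp and otherwise past the gene end, measured 261 and 275 in hypoxia against 111 and 133 in normoxia (−0.66 ± 0.11, limma FDR 0.00016). Neither pair of groups overlapped. With an equal total the changes were −0.31 (not called) and −0.37 (limma, FDR 0.0093), and with cyclic loess −0.33 and −0.31, neither called.

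Tgfbi, a secreted adhesion protein of the matrix named for its induction by TGF-beta, had a promoter peak (chr13:56606501-56617000) with 263 and 278 in hypoxia against 146 and 164 in normoxia. Its change of −0.33 ± 0.11 did not pass (limma, FDR 0.034). A peak 5923 bp upstream of the gene (chr13:56597301-56603600) measured 181 and 195 in hypoxia against 81.7 and 87.4 in normoxia and fell (−0.67 ± 0.12, limma FDR 0.00033). Inside the gene, a peak over annotated exon sequence (chr13:56633901-56635800) measured 68.6 and 58.1 in hypoxia against 28.1 and 25.4 in normoxia and fell also (−0.75 ± 0.17, limma FDR 0.0039). Both peaks had separate groups before and after scaling. Neither was called with an equal total (−0.38 and −0.46) or cyclic loess (−0.38 and −0.66).

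The strongest flanking peaks of the other genes showed little. None passed at Tgfb3 (61.9 and 70.7 in hypoxia against 34.9 and 41.0 in normoxia, at the promoter of Ift43), Smad7 (45.6 and 55.4 against 28.1 and 35.0) or Skil (44.2 and 57.5 against 32.6 and 41.4). At Smad3 the flanking peak overlapped between groups before scaling (34.0 and 23.1 against 32.6 and 28.4) and its scaled change was 0.58 (limma, FDR 0.056). It was called higher with an equal total over all peaks (0.86, limma FDR 0.0058) and not with cyclic loess (0.58, FDR 0.080). At the receptors these peaks were weak, with all values between 8.68 and 13.9.

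To compare genes as a whole, the signal of all peaks of a gene and its 10 kb flanks was summed. By these sums 26.4% of the 18096 genes were lower in normoxia and 2.43% higher, with a median log2 fold change of −0.16 after scaling. The 9 members had a median of −0.17, and 4 of them were called lower by limma, with none higher. Skil went from 745 and 806 in hypoxia to 368 and 433 in normoxia (log2 fold change −0.48 ± 0.082), and Tgfb1 from 797 and 857 to 391 and 487 (−0.44 ± 0.081). Tgfbi went from 594 and 607 to 316 and 323 (−0.43 ± 0.087), and Smad7 from 1321 and 1372 to 727 and 807 (−0.33 ± 0.071). These are the genes that also had peaks called lower. With an equal total over all peaks none of the 4 passed, and with cyclic loess only Skil did (−0.24, limma FDR 0.0060), although each stayed below 0. Smad7 also lost its call in edgeR (−0.17, FDR 0.048), which computed its RLE factors anew on the gene sums and so differs in scaling too. From 63.5% (hypoxia) to 69.7% (normoxia) of the Smad7 sum was the wide promoter peak for which no direction is given.

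The other 5 genes did not pass by their sums. Their scaled changes were −0.17 at Tgfbr1 (limma FDR 0.14), −0.12 at Tgfb3, −0.11 at Tgfb2, −0.09 at Tgfbr2 and 0.02 ± 0.071 at Smad3 (limma FDR 0.86), close to or above the median of all genes. Before scaling, the normoxia mean of the sum was from 51.7% (Skil) to 72.6% (Smad3) of the hypoxia mean. Smad3 measured 1196 in both hypoxia libraries and 866 and 872 in normoxia. Under the same other scalings the scaled change of Smad3 was 0.31 and 0.23, both called higher. For Tgfb1, part of the sum comes from the promoters of Tmem91 and B9d2.

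**Figure D4:**
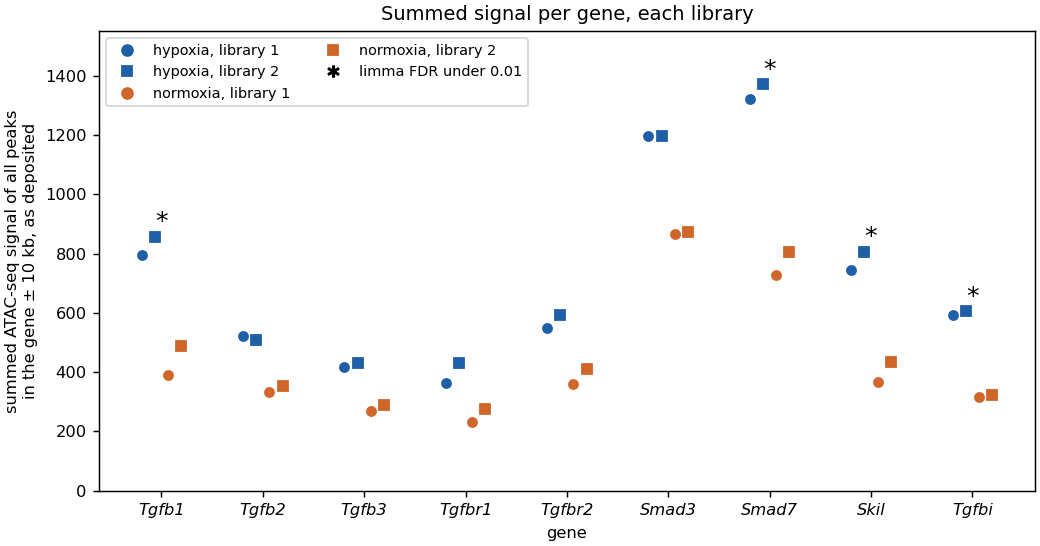
Summed deposited signal of all peaks in each gene and its 10 kb flanks, one point per library, on a linear axis from 0. All 9 genes have both normoxia libraries (orange) below both hypoxia libraries (blue). How many of all 18096 genes do so was not counted, but their median log2 fold change before scaling was −0.64. Stars mark the 4 genes that were lower by limma at FDR under 0.01 after scaling.

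Other genes of the pathway were taken from a list of 50, all of which had a promoter peak. Among their 484 peaks, 38 were called lower and 4 higher (4.57% and 1.77% in the whole table). Of 62 promoter peaks 17 were called lower, at 16 genes, and 0 higher (16.7% and 0.442% of all promoter peaks), and the median promoter change was −0.25, close to the −0.27 of all promoters. By summed signal 16 of the 50 genes were lower and 0 higher (26.4% and 2.43% of all genes). Of the 17 promoter peaks, edgeR called 17 lower, an equal total over all peaks left 5 called and cyclic loess left 1, that of Itgb8. These genes were not chosen blind to the results, and the counts are a description.

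The counts by role below can be read against the 16.7% of all promoter peaks called lower. Of the 11 pathway targets, with 11 promoter peaks, 4 had one called lower. Among them were the fibronectin gene Fn1 (637 and 718 in hypoxia against 315 and 383 in normoxia, a log2 fold change of −0.48 ± 0.088, limma FDR 0.00043) and the type I collagen genes Col1a1 (−0.40) and Col1a2. With cyclic loess, Fn1 and Col1a1 changed sign (0.02 and 0.13) and were not called.

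Among the 14 genes of ligand latency and activation, 6 of 19 promoter peaks were called lower, at 6 genes, while the median of the 19 was −0.10, above that of all promoters. Thbs1, a matrix protein that activates latent ligand, measured 2980 and 3851 in hypoxia against 1320 and 1444 in normoxia (−0.82 ± 0.069, limma FDR 1.3e-09), but −0.13 (FDR 0.72) with cyclic loess. Itgb8, the subunit of an activating integrin, had the largest change among these promoters, from 205 and 233 to 63.0 and 77.8 (−1.15 ± 0.12, limma FDR 1.9e-07; −0.86 with cyclic loess). Its partner Itgav had −0.71 (−0.38 with cyclic loess, not called), and the latent TGF-beta binding protein gene Ltbp4 had −0.49 (−0.10, not called).

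Of the 8 inhibitors and ubiquitin enzymes, 3 had such a promoter peak (4 of 12 peaks), including the corepressor Tgif1 (636 and 711 against 277 and 327, a log2 fold change of −0.68) and the Smad phosphatase Ppm1a (−0.61). Of 4 SMADs and adaptors, Smad2 (−0.53) and Smad4 (−0.58), the partners of Smad3, were called lower, and of 8 receptors and co-receptors (11 promoter peaks) 1 was, the activin receptor Acvr2a (−0.59). With cyclic loess none of these was called, at −0.19 for Tgif1, −0.25 for Ppm1a, −0.14 for Smad2, −0.29 for Smad4 and −0.28 for Acvr2a. None of the 5 related ligands and traps of the activin branch had a promoter peak called in either direction.

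**Figure D5:**
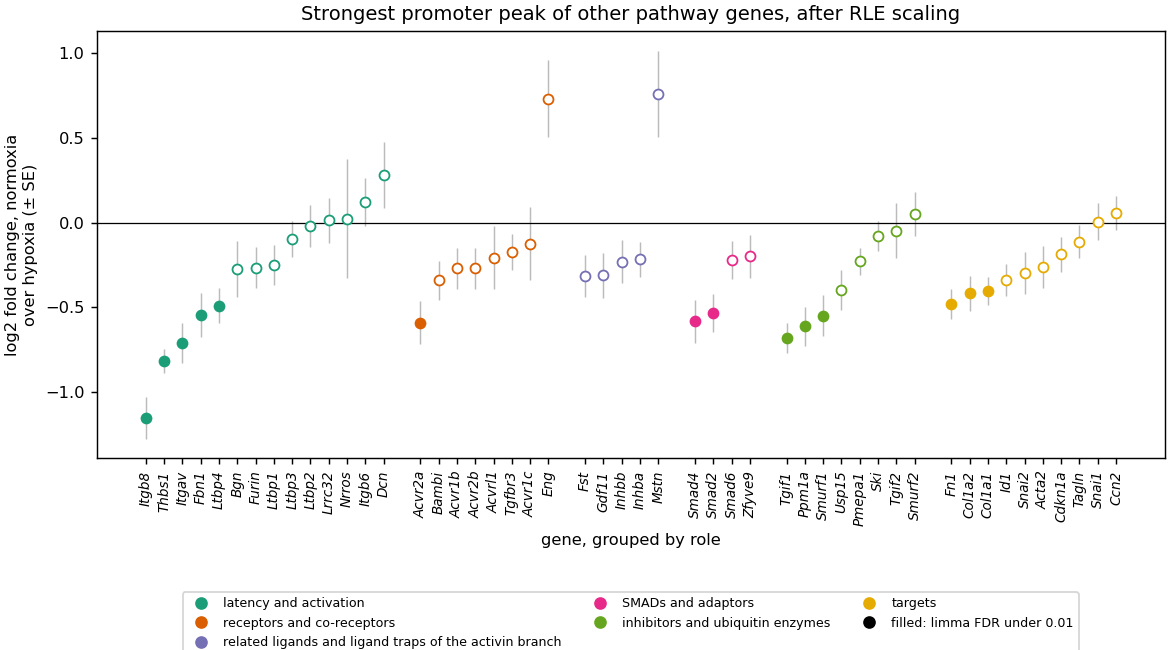
Log2 fold change, normoxia over hypoxia after RLE scaling, with its standard error for the strongest promoter peak of 49 other pathway genes, grouped by role. The 14 filled circles passed FDR under 0.01 in limma and all lie below 0, with Itgb8 lowest at −1.15.

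With edgeR on recovered reads, which called 5.7% of all peaks lower and 2.54% higher, all 11 member peaks above were called in the same direction. With an equal total over all peaks 4 of the 11 passed (the Skil promoter, the peak at the Smad7 end, and both higher peaks), and with cyclic loess 3 (the second weak Skil peak and both higher peaks). When either hypoxia library was left out none of the 11 passed, although each kept its direction, and 0 peaks of the whole table passed then (24119 and 24294 at an unadjusted p under 0.05, limma; edgeR was not run without a library).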

How the data were processed

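ATAC-seq was measured in 4 libraries, 2 per oxygen level, grouped by the labels. Per the labels and the study's methods, the authors aligned reads to mm10 with Bowtie2, removed duplicates with Picard and called 1 peak set over both conditions with chromstaR. The deposited signal is called RPKM by the authors but is not divided by peak width: 100% of values were whole multiples (tolerance 0.01) of 1e+07 over a library total, from which reads were recovered. The name of each peak carries the conditions it was assigned to.

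Peaks were joined to GENCODE M21 genes. Values were divided by RLE size factors (1.13 and 1.23 in hypoxia, 0.81 and 0.89 in normoxia) and log2(value + 1) was fitted in limma 3.58.1 (R 4.3.3; trend and robust), two-sided, with Benjamini-Hochberg adjustment over 128055 peaks, or over 18096 genes for sums. The log2 fold change understates the change of low peaks. With 2 libraries per group an exact permutation test cannot go below 0.333, so none was used. Alternatives were other scalings, a pseudocount of 0.1 or of 5, leaving out peaks with a mean under 5, edgeR 4.0.16 on the recovered reads, an FDR of 0.05, a promoter window of 2 kb, leaving out each library, and a replicate block. The fits were tested on simulated data. Peaks named with values were every promoter peak of a member, every called member peak, and the strongest gene-body and flanking peaks; of the 50 other genes, at most 12 with a called promoter peak, lowest p first, were to be named, and Col1a2 was added to the collagen genes named. Genes that fall under these rules but are withheld are counted in their lists and not reported here. The members and lists were chosen with earlier results of these data known. Recovered reads may be counted more than once in neighbouring bins, so no counting interval is given.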

Additional observations from a re-analysis of the deposited data

How the results depend on the processing

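The 11 called member peaks kept their direction under every setting tried here, but not their call. Of the 11, 9 were called on the values as deposited, 4 with an equal total over all peaks, 3 with cyclic loess, 8 with a pseudocount of 0.1, 11 with a pseudocount of 5, with a minimum mean value of 5 and with edgeR, and 0 without trend and robust estimation (23 of the 98 at an unadjusted p under 0.05, limma). Without hypoxia library 1 or 2 the count was 0 as well (19 and 22 of the 98 at an unadjusted p under 0.05), and 9 without normoxia library 1 or 2. The cause was not tested.

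As deposited, 35 member peaks were called lower and 0 higher, against 9 and 2, and 2 and 7 with an equal total, 1 and 4 with loess, 7 and 1 with a pseudocount of 0.1, 0 and 0 without trend and robust estimation, and 13 and 4 at an FDR under 0.05. Leaving out 1 library gave 0 to 11 lower and 0 to 1 higher. By summed signal 4 genes were lower and 0 higher; this became 9 and 0 as deposited, 0 and 1 with an equal total, 1 and 1 with loess, 0 and 0 without trend and robust estimation, 3 and 0 with edgeR (without Smad7), and 2 to 4 lower with 1 library left out (2 without hypoxia library 1). The scaling shifts the median of all genes' sums from −0.64 as deposited to 0.13 with an equal total. For the sums, edgeR computed its RLE factors anew, so its counts differ in scaling as well as in tool.

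Class medians turned with scaling. The promoter median (−0.26) was −0.74 as deposited, 0.027 with an equal total and 0.038 with loess, and −0.35 to −0.19 with 1 library left out. The gene-body median (−0.10) was −0.54, 0.14 and −0.14, was −0.17 with edgeR, and was −0.18 to −0.045 with 1 library left out. The flanking median (−0.10) was −0.47, 0.13 and −0.12, and 0.0004 with a minimum mean value of 5.

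Named peaks that changed sign were all uncalled in the fit of the report. As deposited they were Tgfb2 gene body (−0.40), Tgfb3 gene body (−0.15), Tgfbr1 gene body (−0.41) and flanking (−0.23), the middle Smad3 promoter (−0.36) and Skil upstream flanking (−0.45). With an equal total and with loess they were the promoters of Tgfb2 (0.093 and 0.10), Tgfb3 (0.027 and 0.073), Smad7 (0.091 and 0.35) and Smad3 (0.11 and 0.012 at the last start, 0.22 and 0.22 at the first) and the gene bodies of Tgfbr2 (0.21 and 0.24) and Smad3 (0.046 and 0.075). With an equal total only, they were Smad7 flanking (0.087) and Skil gene body (0.0098), and with loess only, the promoters of Tgfbr1 (0.038) and Tgfbi (0.048). Without hypoxia library 1 they were Tgfbr1 gene body (−0.11), the middle Smad3 promoter (−0.0070), the first Smad3 promoter (0.036) and Skil flanking (−0.12). Without normoxia library 1 it was Tgfb2 gene body (−0.011, up to 0.15 without normoxia library 2), and without normoxia library 2 Tgfbr1 gene body (−0.00096), the middle Smad3 promoter (−0.046) and Skil flanking (−0.079).

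Replicate numbers were not found to pair the libraries (correlation of same-numbered deviations 0.011). The study describes dividing the sorted cells between the oxygen levels, so libraries may share an origin that the numbers do not show. Over the whole table the replicate block called 8468 peaks lower and 3912 higher, against 5856 and 2262 without it. With the replicate block 10 member peaks were called lower and 2 higher, the 11 among them, and 4 genes by summed signal. The 2 kb promoter window changed no class median. Weak peaks rest on few reads, and 2 libraries per group leave the spread poorly known.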
